A study of Homo sapiens with 2 samples.

Results

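Tissue kallikreins and epithelial protease inhibitors were examined in Ca9-22 cells that carried an empty vector or a vector for RUNX2. The set was defined by name and held 10 genes: the serine proteases KLK5, KLK6, KLK7, KLK8, KLK10, KLK11 and KLK13, and the inhibitors SPINK5, SLPI and PI3. Of these 10 genes, 9 had a probe set that the platform's annotation gives to them alone, 15 probe sets in all, out of 41091 probe sets with 1 symbol for 19775 genes on the array. SPINK5 had none and has no value here. Of the 9 genes, 8 were measured, meaning that at least 1 probe set exceeded the median of its array, which served as the floor.

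Ca9-22 is an established line from a gingival carcinoma, a squamous tumour of the gum. Both groups had been stably transduced and selected with blasticidin, 1 with the empty vector and 1 with RUNX2, a runt-domain transcription factor best known from bone. Total RNA of each group was hybridised to 1 array. With 1 array a group there is no replicate, no test and no p-value, and precision is limited by having so few arrays. Intensities are in arbitrary units and those of the array labelled RUNX2 are given after scaling by 0.966. Log2 ratios are the array labelled RUNX2 over the empty vector array, and a difference was called at 2-fold. The sources used here do not name the vector's promoter, and whether the transduced cells were a pool or a clone was not given in them.

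Tissue kallikreins are secreted trypsin-like or chymotrypsin-like serine proteases, made as inactive precursors and activated by cleavage, often by each other. In stratified epithelium KLK5 and KLK7 are known for cutting the desmosomal proteins that hold the outermost cells together. SPINK5 encodes LEKTI, a Kazal-type inhibitor of these kallikreins. SLPI and elafin, the product of PI3, carry WAP domains and are known mainly as inhibitors of neutrophil elastase on mucosal surfaces.

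The arrays were checked against their labels and against cell type markers. Of the 3 measured RUNX2 probe sets, 2 went with the labels: 216994_s_at read 204 with the empty vector and 854 on the array labelled RUNX2, and 221282_x_at read 102 and 353. The third, 232231_at, went the other way, at 1746 and 433. Every direction below therefore rests on the labels. Of 12 squamous markers, 9 had their own probe set and all 9 were measured, among them KRT5 at 8842 and 12580. KRT14 was 2.69-fold higher and was the squamous marker that passed 2-fold. Of the 9, 8 lay above 0 on the log2 scale, with a median of 0.36. Over all measured genes 42.6% lay above 0, the median was -0.06 and 1.41% were at least 2-fold higher. PKP1, the squamous marker below 0, had -0.24, with 0.44 in its other measured probe set. The summed intensity of the 9 squamous markers was 53227 with the empty vector and 64329 on the array labelled RUNX2. None of the 7 leukocyte markers with a probe set was measured. Of 6 fibroblast markers 1 was measured, COL1A1 at 1937 and 1553, and of 4 endothelial markers 2 were, near the floor. Of 8 markers of simple and glandular epithelium 5 were measured, 3 with log2 ratios above 0 and 2 below. The keratins KRT8, KRT18 and KRT19 were above, with KRT19 at 9801 and 12313. MUC1, at 244 and 179, had -0.45 and MUC5AC, near the floor, had -0.12. KRT7, KRT20 and CDX2 lay below the floor. What part the cell composition of the cultures has in the values below was not tested.

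KLK5, KLK6 and KLK7 were picked because they are neighbours in the kallikrein cluster on chromosome 19 and read in different directions. In the array labelled RUNX2 KLK6 read lower and KLK5 and KLK7 higher, none of them by 2-fold. What part the promoters have in these values was not tested. The promoter sequences of these genes are shown. Each is the 250 bases before the gene's outermost start in the table of RefSeq promoters, build GRCh38.p14, minus strand, 5′ to 3′. Capitals mark the letters TATAA on the gene's strand, as in a TATA box, and GGGCGG on either strand, as in a GC box.
KLK5, chr19:50953039-50953288: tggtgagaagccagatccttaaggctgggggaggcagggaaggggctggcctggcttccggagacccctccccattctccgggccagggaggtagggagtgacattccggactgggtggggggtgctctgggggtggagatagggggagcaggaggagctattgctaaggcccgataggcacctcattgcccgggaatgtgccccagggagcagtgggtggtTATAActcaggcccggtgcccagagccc
KLK6, chr19:50969592-50969841: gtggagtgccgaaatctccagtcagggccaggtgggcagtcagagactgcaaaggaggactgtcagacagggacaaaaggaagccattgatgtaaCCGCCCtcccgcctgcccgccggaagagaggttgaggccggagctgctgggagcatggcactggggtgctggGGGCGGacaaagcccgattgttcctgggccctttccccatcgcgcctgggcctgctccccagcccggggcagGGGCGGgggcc
KLK7, chr19:50984065-50984314: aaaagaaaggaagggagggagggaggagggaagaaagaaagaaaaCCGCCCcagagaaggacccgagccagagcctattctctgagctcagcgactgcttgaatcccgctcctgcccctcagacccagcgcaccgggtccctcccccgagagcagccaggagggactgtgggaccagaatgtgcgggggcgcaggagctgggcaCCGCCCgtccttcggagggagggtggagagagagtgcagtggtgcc
The KLK5 window held TATAA from 28 bases before the start and no GGGCGG. The KLK6 window held no TATAA and GGGCGG 3 times, from 155, 83 and 11 bases before the start. The KLK7 window held no TATAA and GGGCGG 2 times, from 205 and 46 bases before the start. An inner start of KLK7 had TATAA from 27 bases before it. Over 35116 promoter windows of all genes, TATAA was found in 13.6% and GGGCGG in 42.6% of the 250-base stretches. G and C made up 64.8%, 66.8% and 64.0% of the bases for KLK5, KLK6 and KLK7.

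Letters of the RUNX consensus, TGTGGT or TGCGGT on either strand, were searched in the whole windows of 300 bases, from 250 before to 50 after each start. These words cannot overlap GGGCGG. Windows were at hand for 7 members, not for KLK8, SLPI or PI3. A match stood in 3 of 6 kallikreins, KLK6, KLK7 and KLK10, and in SPINK5. By window it was 6 of 12, where windows of KLK7, of KLK10 and of KLK13 overlap. Each KLK7 window holds the same match, so the 6 are not separate matches. Of all 35116 windows 19.6% held a match. This share is by window. Some genes have several windows, so the count by gene cannot be set against it. The kallikrein matches are shown with 12 bases on each side and the match in capitals. They lie in a gene that read lower and in genes that read higher, none of them by 2-fold.
KLK6, chr19:50969572-50969601: ggcgggggccagTGTGGTgacacacgctgt
KLK7, chr19:50984010-50984039: cagataaccagaACCGCAaatgcaggcggg
KLK10, chr19:51019670-51019699: taccagcggcagACCACAggcagggcagag
The KLK6 match began at base 3 after the start, and the KLK10 match at base 23 after the inner of its starts. The KLK7 match began 110 bases before an inner start and at base 38 after the outermost one. The AP-1 letters TGAGTCA or TGACTCA were found in 0 of the 12 windows and in 4.95% of all windows. These are matches of letters, and binding of RUNX2 was not measured.

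SLPI was the member that differed by 2-fold. Its only probe set read 1660 with the empty vector and 3738 on the array labelled RUNX2, which is 2.25-fold higher, or 1.17 on the log2 scale. Among 12729 measured genes, 180 (1.41%) passed 2-fold upwards and 187 (1.47%) passed it downwards. With the arrays scaled to equal medians these counts were 229 and 137. Among the 8 measured members, 1 was higher and 0 were lower. In RNA of a whole culture, more cells with a transcript and more of it per cell cannot be told apart. Genes were also sorted into 12 classes of mean level, and in the class of SLPI the central 95% of log2 ratios ran from -0.65 to 0.76. That range describes how genes of like level spread between these arrays and is no replicate error.

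PI3, which encodes elafin, exceeded the floor only on the array labelled RUNX2, in both of its probe sets. The probe set 203691_at read 48.2 and 79.2, at least 1.43-fold higher against the floor of 55.3. The other, 41469_at, read 29.2 and 63.1, at least 1.14-fold higher. Without a floor their log2 ratios were 0.72 and 1.11. Both probe sets of PI3 thus read higher in the array labelled RUNX2, and the size of the difference depends on how values near the floor are treated. Since PI3 was measured only through the array labelled RUNX2, the sign of its bounds follows from the floor and supports nothing.

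**Figure D1:**
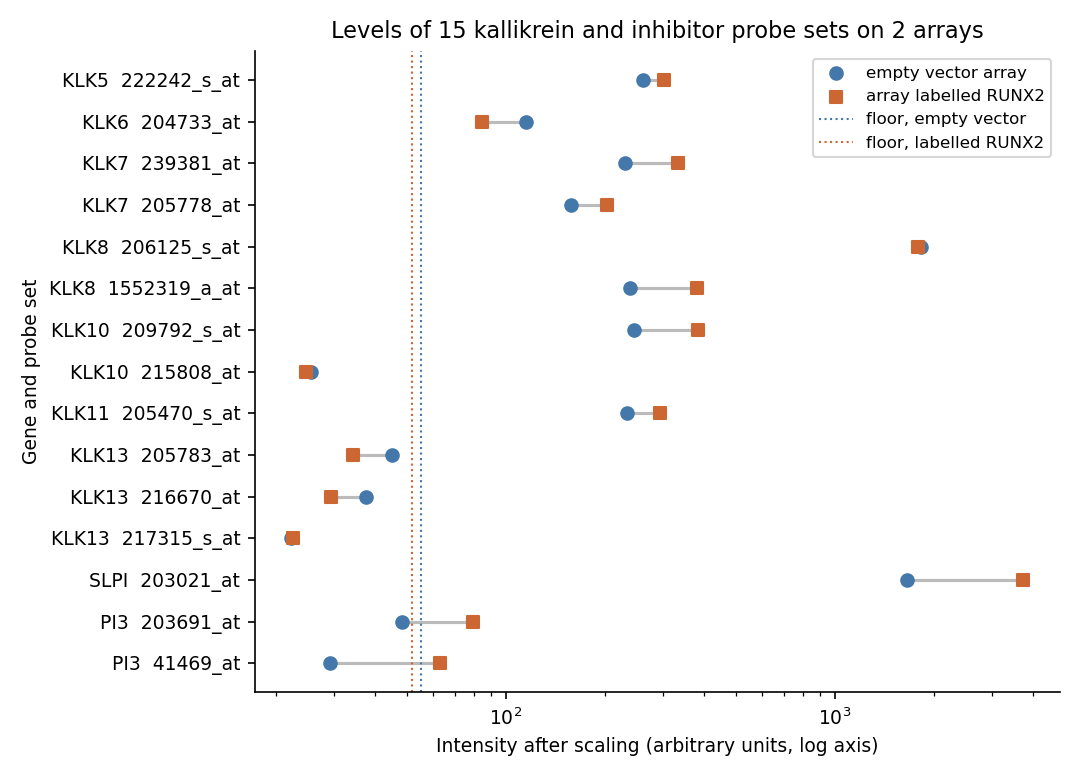
Scaled intensity (log axis, arbitrary units) of the 15 probe sets of 9 genes on the empty vector array (circles) and the array labelled RUNX2 (squares), 1 array each, with the floor of each array dotted. SLPI has the widest gap among those that exceed both floors, from 1660 to 3738, and the 3 probe sets of KLK13 lie below both floors.

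None of the kallikreins passed 2-fold in a probe set of its own. Of 6 measured kallikreins, 4 had log2 ratios above 0 and 2 below (KLK8, at -0.04, turned with the scaling), from -0.44 for KLK6 to 0.65 for KLK10, with a median of 0.27. Over all measured genes 42.6% lay above 0 and the median was -0.06. The 8 measured members together had a median of 0.43. It includes PI3 at its bound, whose sign follows from the floor, so this median is not set against that of all genes. At a lower threshold of 1.5-fold, 2 members, SLPI and KLK10, were higher and 0 lower, where 5.77% of all genes were higher and 6.86% lower.

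KLK5, a trypsin-like kallikrein that activates other kallikreins, read 261 with the empty vector and 302 on the array labelled RUNX2. This was 1.16-fold, or 0.21 on the log2 scale. KLK7, the chymotrypsin-like enzyme first described from stratum corneum, read 230 and 333 in its brightest probe set, 239381_at, a log2 ratio of 0.54. Its other probe set, 205778_at, read 158 and 202, a log2 ratio of 0.36. The KLK7 probe sets went the same way. Over 6165 genes, the SD of probe sets around the mean of their gene was 0.29. That spread lies within these arrays and is no replicate error. It describes single probe sets and not the difference of 2.

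KLK6, a trypsin-like enzyme also called neurosin and known from brain, had the lowest ratio of the measured kallikreins. Its probe set read 115 with the empty vector and 84.9 on the array labelled RUNX2, a log2 ratio of -0.44. Its neighbours KLK5 and KLK7 both read higher in that array. The KLK6 value is within the central range of its level class, -1.04 to 0.81.

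KLK8, a serine protease of skin and brain also called neuropsin, gave different values by probe set. The brightest, 206125_s_at, read 1832 and 1785, a log2 ratio of -0.04. The other, 1552319_a_at, read 238 and 382, which is 1.60-fold higher and 0.68 on the log2 scale. A further probe set, 233687_s_at, is annotated to KLK8 and KLK9 together and so stands for neither. It read 86.3 and 205, 2.38-fold higher. KLK9 had no probe set of its own. For KLK8 the sign of the value for the gene therefore rests on which probe set stands for it, and on the scaling, since 206125_s_at had log2 ratios of up to 0.05 under other scalings.

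KLK10 and KLK11 are neighbours in the cluster. KLK10, a kallikrein studied as a candidate tumour suppressor in breast, read 245 and 384 in 209792_s_at, 1.57-fold higher and 0.65 on the log2 scale. Its second probe set, 215808_at, lay below the floor on both arrays, and its deposited value of 25.6 was equal in every digit on both. KLK11, a trypsin-like kallikrein also called hippostasin, read 233 and 294, a log2 ratio of 0.33. KLK13 was below the floor in all 3 probe sets, at 22.3 to 45.0 on the empty vector array and 22.5 to 34.2 on the array labelled RUNX2, so that no ratio is given. Each of the 8 probe sets of kallikreins above the floor on both arrays lay inside the central range of its level class.

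**Figure D2:**
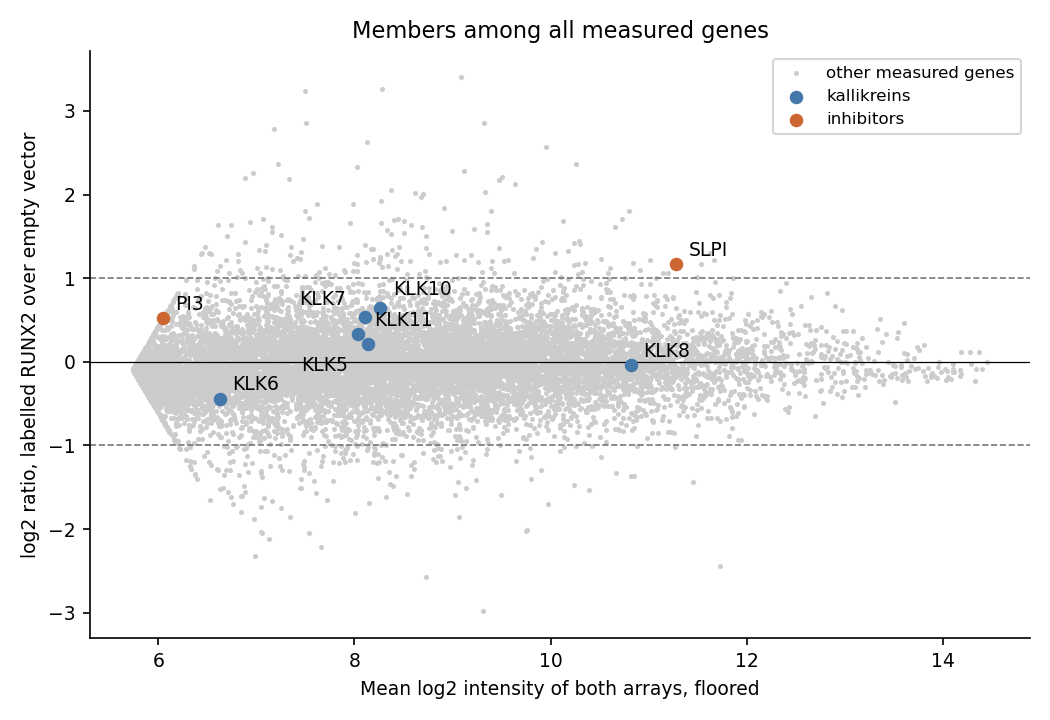
Log2 ratio (array labelled RUNX2 over empty vector) against mean log2 intensity after flooring for the 12729 measured genes (grey), with the 6 measured kallikreins and 2 inhibitors marked and 2-fold dashed. SLPI at 1.17 lies above the upper line, and the kallikreins lie between -0.44 and 0.65 within the cloud of other genes.

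The members were set beside the genes around them, using the order of protein-coding genes in RefSeq, assembly GRCh38.p14. In the kallikrein cluster from ACP4 to CTU1, KLK5 to KLK8 lie side by side, then KLK9, KLK10, KLK11, KLK12, KLK13 and KLK14. Of 11 other genes in this stretch 6 were measured, and 0 of these 6 had a ratio above 0. Members were chosen with earlier results of these data known, so this count is no contrast with the members. Over all measured genes 42.6% lay above 0, and ratios below 0 were more usual at low levels. In level classes 1, 2 and 3, the lowest of 12, the medians were -0.15, -0.18 and -0.13. KLK1, KLK12 and KLK14, at 88.4, 74.2 and 71.0 with the empty vector, read near the floor. The 6 measured other genes included KLK4, a kallikrein of enamel and prostate, with 220 and 163 and a log2 ratio of -0.43. KLK14, a trypsin-like kallikrein of skin, had 71.0 and 59.2 and a log2 ratio of -0.26. KLK12 had -0.16 in its brightest probe set and -0.32 and -0.26 in the others. KLK3, which encodes prostate-specific antigen, had -0.26. Only 1 of 3 probe sets of KLK3 and 1 of 5 of KLK4 were measured, and the others lay below the floor. KLK1 had -0.05, the value that the scaling gives to equal deposited intensities. KLK2 and KLK15 lay below the floor in their 4 probe sets each. With equal medians or after loess on level, 1 of the 5 measured kallikreins outside the set was above 0, and on the deposited scale 4 were below 0 and KLK1 was at 0.

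The inhibitors PI3 and SLPI lie in the WAP cluster on chromosome 20, with SEMG1 and SEMG2 between them. WFDC5, a WAP domain gene at the outer end of this stretch, read 30.3 and 69.0, so it exceeded the floor on the same array as PI3, with a bound of 0.32. WFDC12, which adjoins PI3, had a log2 ratio of -0.28 at 94.9 and 78.2, and MATN4, which adjoins SLPI, had -0.11. SEMG1 and SEMG2 were below the floor. Around SPINK5 on chromosome 5, none of the 6 other genes with a probe set was measured. RefSeq also lists non-coding genes that overlap SLPI and KLK5, and whether the probe sets read them was not tested.

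**Figure D3:**
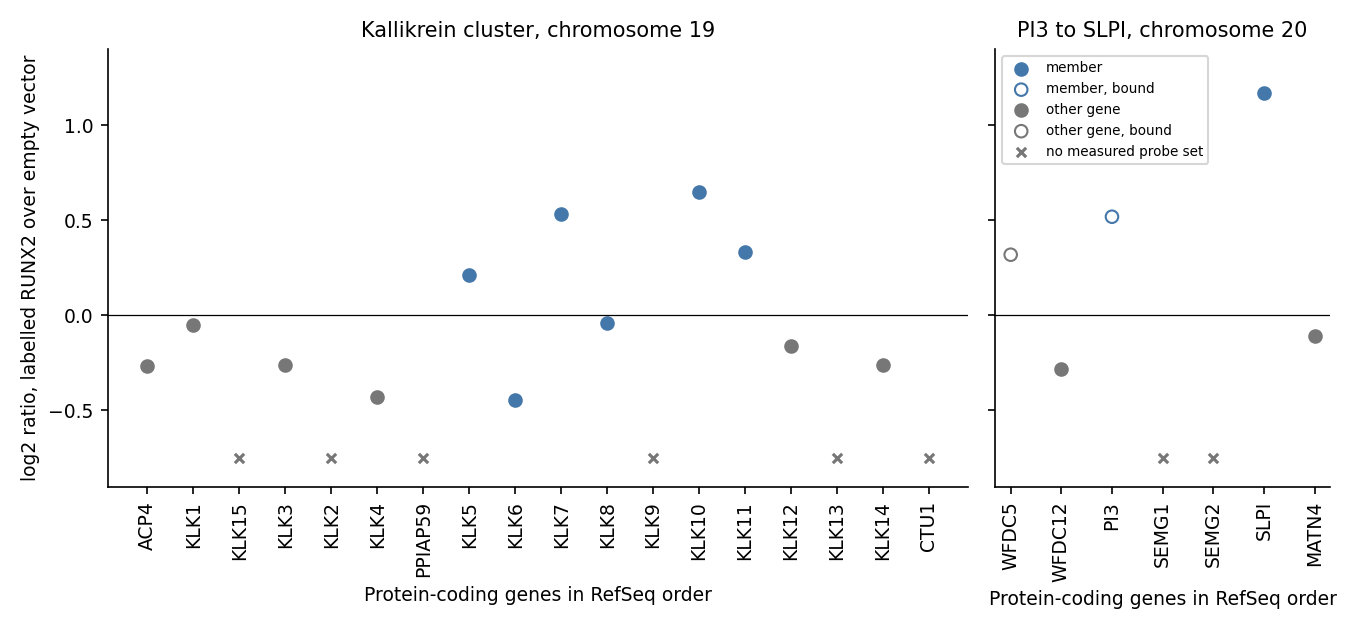
Log2 ratio of each protein-coding gene in RefSeq order along the kallikrein cluster and from WFDC5 to MATN4, with members in blue, bounds open and genes without a measured probe set as crosses at the bottom. Of the 6 measured kallikrein members 4 lie above 0, with KLK8 at -0.04 changing sign by scaling. The 6 other measured genes of that stretch lie below 0, KLK1 at -0.05 reaching 0 or more under other scalings. Over all measured genes 42.6% lie above 0. Members were chosen with earlier results of these data known, so members and other genes are not contrasted.

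Other genes of the protease network were grouped in 9 lists, whose 89 distinct genes held 46 that were measured. Of these 46, 0 passed 2-fold upwards and 3 downwards, with a median log2 ratio of -0.13. Over all measured genes 1.41% passed it upwards and 1.47% downwards, and the median was -0.06. Among upstream activators and Kunitz inhibitors, 1 of 9 measured genes differed, the membrane serine protease TMPRSS4, which read 1738 and 426, 4.08-fold lower. Matriptase, ST14, known to start kallikrein activation in skin, had -0.44 and -0.43 in its measured probe sets, and prostasin, PRSS8, had -0.16. Of the inhibitors, SPINT1 had -0.31, with -0.09 in its other measured probe set, and SPINT2 had 0.09. The list's median was -0.16.

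Kallikrein substrates were mostly not measured. The desmosomal and corneodesmosomal genes DSG1, DSC1 and CDSN lay below the floor, and F2RL1, the receptor PAR2, had no probe set of its own. FLG, which encodes filaggrin, read 239 and 410, a log2 ratio of 0.78, CAMP, the precursor of the peptide LL-37, had -0.32 and the thrombin receptor F2R had -0.15. Of a list of neutrophil and mast cell proteases, some of which SLPI or elafin inhibit, together with the inactive homologue AZU1, the genes ELANE, PRTN3, AZU1 and CMA1 lay below the floor. CTSG had -0.40 at 94.0 and 71.4, and TPSAB1 had 0.02, with -0.36 in its other measured probe set.

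Among other inhibitors, 0 of the 6 further SPINK genes with a probe set were measured. Of 12 further WAP domain genes with a probe set, 4 were measured, among them WFDC2, also called HE4, with a log2 ratio of 0.47 (172 and 238), and WFDC5 with its bound. The 7 measured clade B serpins ran from -0.67 for SERPINB1, an inhibitor of neutrophil proteases, to 0.92 for SERPINB5, maspin, which read 1497 and 2842 and passed 2-fold with the arrays scaled to equal medians. Other probe sets of SERPINB1 had -0.16 to 0.07. SERPINB3 and SERPINB4, the squamous cell carcinoma antigens, had 0.08 and 0.21. The 10 measured cystatins and cathepsins had a median of 0.01, from -0.36 for CTSB to 0.62 for CTSC, the activator of granule serine proteases, whose other probe sets had -0.14 to 0.20. CSTA, the cystatin of the cornified envelope, had 0.12 at 6296 and 6840.

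Both other genes past 2-fold were secreted serpins. SERPINA5, the protein C inhibitor, which also inhibits kallikreins, read 947 and 334, 2.84-fold lower, and SERPINA3, antichymotrypsin, read 190 and 76.3, 2.48-fold lower. SERPINA1, antitrypsin, read 86.1 and 143, a log2 ratio of 0.73, with 0.76 in its other measured probe set. Progranulin, GRN, which SLPI is known to protect from elastase, had -0.12, and TGM1, the transglutaminase that can link elafin into the cell envelope, had 0.08.

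**Figure D4:**
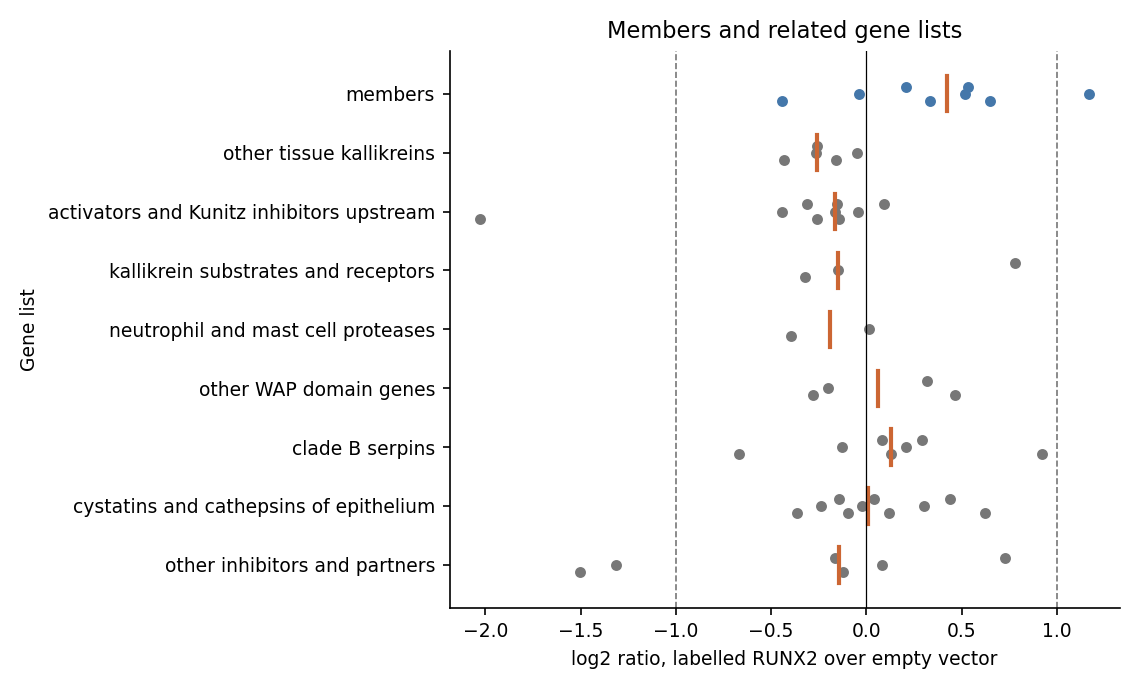
Log2 ratio of each measured gene of the set (blue, 8 genes) and of the related lists with a measured gene (grey), with list medians as orange bars and 2-fold dashed. SLPI at 1.17 is the point above the upper line, and TMPRSS4, SERPINA5 and SERPINA3 are the points below the lower one.

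Under 10 other settings of scaling, floor and probe set choice, the log2 ratio of SLPI stayed between 1.14 and 1.26. Only the scalings and the offset could move it, since its only probe set lies far above each floor. KLK10 ran from 0.54 to 0.74, KLK7 from 0.43 to 0.63, KLK11 from 0.26 to 0.43, KLK5 from 0.16 to 0.30 and KLK6 from -0.44 to -0.32 over the settings in which each was measured. PI3 ran from 0.34 to 0.72. KLK8 ran from -0.04 to 0.68 and was the member whose sign depended on the setting.

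**Figure D5:**
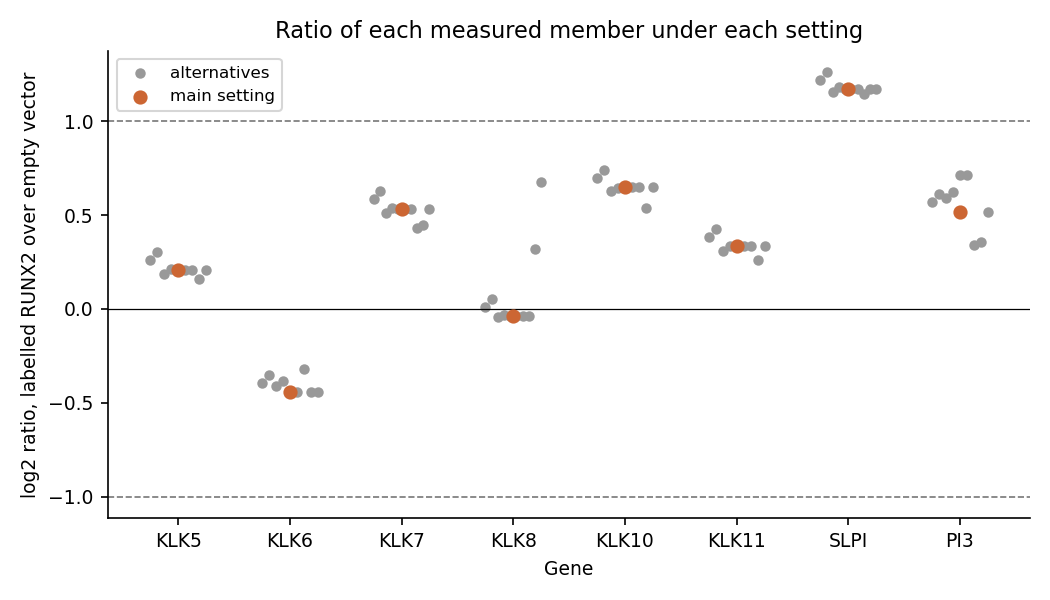
Log2 ratio of each measured member under the main setting (orange) and under the other settings of scaling, floor and probe sets (grey), with 2-fold dashed. KLK8 spans 0, from -0.04 to 0.68, while SLPI stays above the upper line at 1.14 to 1.26.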

How the data were processed

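Biotin-labelled cRNA of 2 samples, 1 array each, was hybridised to Affymetrix arrays, per the labels' protocols. The authors deposited 1 linear intensity for each of 54675 probe sets. MAS5 stands in the submitters' processing notes, with no version or scaling target. Samples were grouped by title.

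Without the 62 control probe sets, a factor of 0.966 on the array labelled RUNX2 gave both arrays equal 2% trimmed means. Each array's median was its floor, 55.3 for the empty vector and 51.8 for the other. Lower values were raised to it, which makes the ratio a bound, and a probe set counted as measured when either array exceeded it. Symbols came from the platform's annotation and were updated by Entrez ID. A gene was represented by its brightest measured probe set, by mean log2 level. The genes named are all members and, per list, those past 2-fold or with the widest ratios, plus others named after their values were seen. Members and lists were chosen with earlier results of these data known. Scripts (Python 3.11.15, pandas 2.3.3, statsmodels 0.14.6) were tested on simulated data.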

Additional observations from a re-analysis of the deposited data

How the results depend on the processing

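With 1 array a group, no array could be left out. No paired analysis was possible because each group holds 1 array and no test was made. SLPI was at least 2-fold higher under each of the 10 other settings of scaling, floor and probe sets. Those that moved or removed the floor or changed the probe sets left its only probe set at 1.17. They could not have done otherwise, so only the scalings and the offset bear on it. At 1.5-fold the count of higher members was 2 (SLPI and KLK10) and at 4-fold it was 0. With the floor at the 25th percentile, and with no floor, 2 member probe sets instead of 1 were at least 2-fold higher, since 41469_at of PI3 then had a log2 ratio of 1.11, and 5 list genes instead of 3 passed 2-fold, with TMPRSS11E and WFDC5 added. With equal medians 4 list genes passed, SERPINB5 being the one added. When an offset replaced the floor, SERPINA3 no longer passed. Of 160 values of single members or probe sets, 155 moved by less than 0.29, the SD between probe sets of a gene. Another 5 moved by more, and 0 called values changed sign. A gene and the probe set that stands for it are both counted, and bright probe sets cannot move with the floor. These counts are therefore no measure of stability. KLK8 was 0.32 as the mean of its probe sets and 0.68 without probe sets ending in _s_at or _x_at. Over all genes the counts past 2-fold were 112 upwards and 79 downwards with the floor at the 75th percentile, and 114 and 91 with the offset. The median of all genes ranged from -0.11 without a floor to 0.03 with equal medians.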

Other observations

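The deposited intensities carried a pattern in their decimals. On the empty vector array 3.91% of values had decimals of 0.40 and 3.80% of 0.90 after rounding to hundredths, where the median over the other hundredths was 0.933%. On the array labelled RUNX2 these shares were 3.85%, 3.73% and 0.939%. Both arrays had such decimals for 3090 of 54613 probe sets (5.66%), and for 4 of the 15 probe sets of kallikreins and inhibitors: 204733_at of KLK6, both probe sets of KLK8 and 209792_s_at of KLK10. In 1447 probe sets, 215808_at of KLK10 among them, the intensities were equal in every deposited digit. How these values arose was not tested.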
